A study of Mus musculus with 105 samples.

Results

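Poly(A) tail lengths of messenger RNAs in full-grown mouse oocytes are described here. The genes are all those with a tail length above 0 in the single wild-type full-grown oocyte tail library, 6353 of the 20604 genes (30.8%) listed in the deposited tail table. The tail lengths were set beside the ribosome footprints of 18 single wild-type full-grown oocytes, numbered FGO 1 to FGO 18, and 6253 of the 6353 genes could be matched to a footprint value. No other library of the series, which holds 105 samples of oocytes, embryos and cultured cells, entered any value below.

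Oocytes came from C57BL/6 females of 8 or 5 weeks of age that had been given PMSG and hCG, the gonadotropins used to make follicles grow and ovulate. The label of the tail library carries the letters SN after the stage name and those of the 18 single oocytes do not, so the tail and the footprint libraries may hold oocytes of different kinds. For the tails, total RNA was extended at its 3′ end, copied into cDNA, amplified and read on a PacBio Sequel II. How many reads stand behind each tail length is unknown, and with 1 tail library there is no replicate, so no error can be given for the tail of a single gene and no difference between genes was tested. The footprints are FPKM, fragments scaled to transcript length and to the depth of the library, a level per unit of length. They report ribosomes on all copies of an mRNA together, so the amount of an mRNA and the number of ribosomes on each copy cannot be told apart.

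A full-grown oocyte stores mRNAs that it made while growing and then stops transcription, so the proteins of meiosis and of the early embryo have to come from this store. Much of the control acts through the poly(A) tail. Many stored mRNAs are kept with a short tail and little translation, and are given a longer tail by cytoplasmic polyadenylation, through elements in their 3′ untranslated region bound by CPEB1, when meiosis resumes. Other stored mRNAs are translated during growth, and many of these lose their tails and decay later, through the CCR4-NOT deadenylase.

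Marker genes went with the label. Of 21 oocyte markers fixed for the check, 20 had a tail, the exception being Figla. Their summed footprints ran from 2213 to 35633 FPKM over the 18 oocytes, with a median of 11871 FPKM. Of 26 markers of follicle somatic cells, 4 had a tail (Serpine2, Nr5a2, Inha and Cyp11a1), and the summed footprints of all 26 ran from 3.95 to 149 FPKM, with a median of 74.5 FPKM. Fshr, the receptor for follicle-stimulating hormone in granulosa cells, had no tail and a mean of 0.239 FPKM, and Has2, which makes the hyaluronan of the cumulus, was at 0 in every oocyte. The highest means of the 26 were those of Inhbb (24.6 FPKM) and Inha (10.6 FPKM), inhibin subunits, and of the gap junction gene Gja1 (13.0 FPKM). One of 20 blood and immune markers, the endothelial gene Pecam1, had a tail (78.7 nt). The summed footprints of those 20 ran from 1.23 to 1187 FPKM with a median of 14.8 FPKM, and 9 of the 18 oocytes listed a hemoglobin gene above 0. What part RNA of such cells has in the values below was not tested. The rank correlation of tail and footprint described below was 0.271 without those 9 oocytes and 0.258 with all 18.

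The typical tail was between 45 and 63 nucleotides (nt). The median over the 6353 genes was 54.1 nt, with quartiles of 45.2 and 63.2 nt, and 10% of genes lay below 38.3 nt and 10% above 73.1 nt. Between 30 and 80 nt lay 92.3% of genes. Only 65 genes had tails above 100 nt and 139 had tails below 30 nt. Protein-coding genes had a median of 54.0 nt (6253 genes), 76 long noncoding RNAs had a median of 57.9 nt and 22 transcribed pseudogenes had a median of 52.9 nt. None of the 28 mitochondrially encoded names in the table had a tail value in this library.

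**Figure D1:**
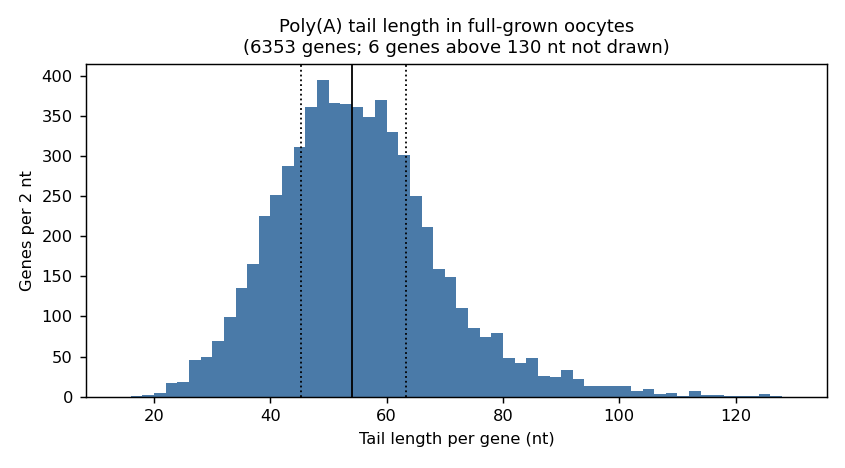
Number of genes (vertical axis, genes per 2 nt) against tail length per gene in nucleotides (horizontal axis) in the wild-type full-grown oocyte library. The solid line marks the median of 54.1 nt and the dotted lines mark the quartiles; 6 genes above 130 nt are not drawn.

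The longest tails formed a thin upper end. Tmem267, a transmembrane protein gene, was listed at 958.3 nt and Pstpip2, an adaptor of the actin cytoskeleton, at 566.8 nt, and no other gene exceeded 200 nt. Both had weak footprints: Tmem267 had a lowest value of 0, a median of 0 and a highest value of 10.8 FPKM over the 18 oocytes, and Pstpip2 had 0, 1.21 and 15.4 FPKM. The next longest were Gm10509 (175.3 nt), the cleavage factor subunit Cpsf6 (157.6 nt) and the Integrator subunit Ints1 (146.2 nt).

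Below these, the long end held genes with weak and with strong footprints. The 64 matched genes with tails above 100 nt had a median of 5.50 FPKM. Among the 12 longest of genes averaging at least 1 FPKM, Fam234a (130.4 nt) averaged 1.46 FPKM, Casq2, a calcium-binding protein gene (125.5 nt), 3.71 FPKM, Tmem184b (120.6 nt) 4.45 FPKM and Tmem63b, a membrane channel gene (127.4 nt), 6.89 FPKM, while 4 others had stronger footprints. Pdia3, an endoplasmic reticulum disulfide isomerase, had a tail of 125.0 nt and footprints of 13.9 to 513 FPKM (median 125 FPKM). Hint1, a nucleotide-binding hydrolase, had 125.2 nt and 5.83 to 245 FPKM (median 76.7 FPKM). Uqcc2, an assembly factor of respiratory complex III, had 123.5 nt and 7.08 to 175 FPKM (median 60.6 FPKM). Ssr2, a subunit of the translocon-associated complex, had 119.8 nt and 3.11 to 74.9 FPKM (median 29.0 FPKM). These 4 were above 0 in every oocyte. Of the 64 genes above 100 nt, 10 had a mean of at least 100 FPKM. Those 10 were chosen after their values were seen, and besides Pdia3 they were Atp5e, Sec61g, Cox7a2, Mrps33, Rbx1, Tbca, Anapc11, Mgst3 and Mrps21. Among them are Sec61g, a subunit of the protein channel of the endoplasmic reticulum (107.1 nt), Rbx1, the RING subunit of cullin ligases (104.1 nt), Tbca, a tubulin chaperone (112.2 nt), and Anapc11, the RING subunit of the anaphase-promoting complex (113.1 nt).

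At the short end, footprints were weak with few exceptions. Trp53inp2, an autophagy regulator, had the shortest tail, 17.0 nt, and footprints from 0 to 37.5 FPKM (median 6.13 FPKM). Next came Gnai1, an inhibitory G protein subunit (18.8 nt, median footprint 0 FPKM), the growth factor gene Pdgfb (19.9 nt, median 0 FPKM), Abhd3 (20.5 nt, median 0 FPKM) and the splicing gene Bud13 (20.5 nt, median 0 FPKM). The glucose transporter gene Slc2a1 had 22.5 nt and a median of 0 FPKM. B2m, the light chain of class I histocompatibility molecules, had 23.4 nt and a median of 17.8 FPKM. The 133 matched genes with tails below 30 nt had a median of 1.52 FPKM, and 2 of them averaged at least 100 FPKM: Gnas, the stimulatory G protein subunit (26.1 nt), and the histone variant gene H2afx (26.7 nt). Gnas had footprints of 32.7 to 340 FPKM (median 121 FPKM) and H2afx had footprints of 0.800 to 252 FPKM (median 108 FPKM).

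Genes were then grouped by function, with 47 lists, and each list was described by its median and by how many members lay in the longest-tailed quartile group (63.25 nt or more) or the shortest-tailed quartile group (45.25 nt or less) of the 6353 genes. By construction each quartile group holds 25% of all genes. The lists overlap in part, and 46 of them had at least 1 member with a tail. The highest medians among lists with 10 or more such members belonged to maternal-effect genes, those of the subcortical maternal complex included (66.8 nt), the nuclear-encoded respiratory chain (64.3 nt), oocyte markers (64.3 nt), cytosolic ribosomal proteins (62.5 nt) and actin, tubulin and thymosin genes (61.6 nt). The lowest belonged to maturation-activated maternal mRNAs (41.4 nt), the oocyte gene families Obox, Oog, Oas1, Tcl1 and Omt2 (41.8 nt) and splicing factors (49.6 nt), against 54.1 nt for all genes. Some of these lists share members and are not separate observations. Nlrp5, Ooep, Tle6, Dppa3, Padi6, Npm2 and Khdc3 are both maternal-effect genes and oocyte markers. Omt2a, Omt2b, Tcl1 and Obox5 are both in the maturation-activated list and in the oocyte gene families.

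**Figure D2:**
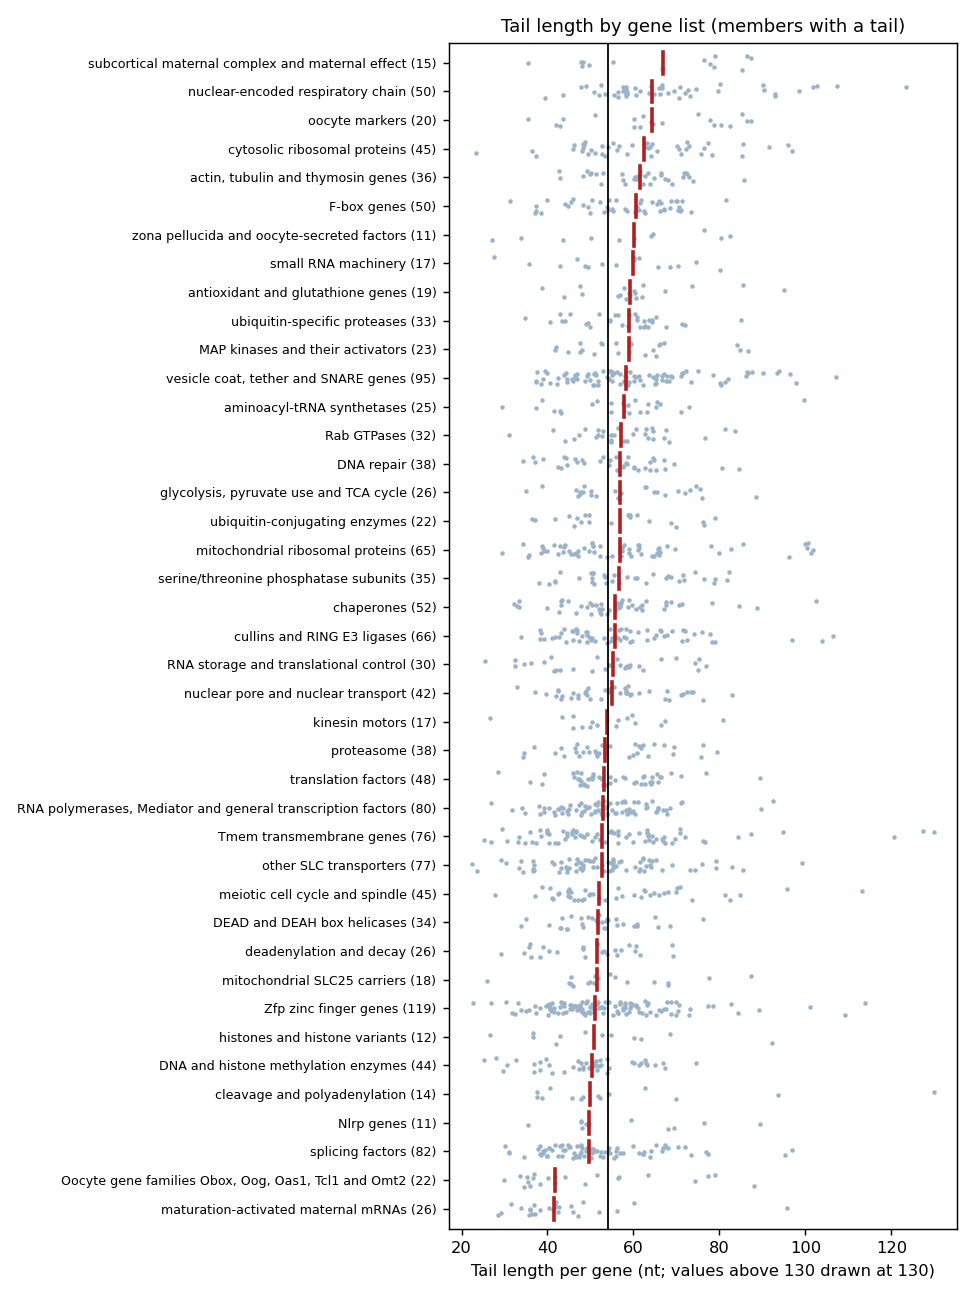
Tail length per gene in nucleotides (horizontal axis, values above 130 drawn at 130) for each gene list with at least 10 members that had a tail, with the number of such members in parentheses. Points are genes, red bars are list medians and the black line is the median of all 6353 genes; the medians run from 66.8 nt in the subcortical maternal complex list to 41.4 nt in the maturation-activated list.

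The subcortical maternal complex is a protein assembly under the oocyte membrane that the early embryo needs, and the list also holds other genes whose maternal loss stops the embryo. Of its 16 genes, 15 had a tail, 9 of them in the longest-tailed quartile group and 1 in the shortest. Padi6, a component of the cytoplasmic lattices, had 85.3 nt and footprints of 102 to 5372 FPKM (median 1534 FPKM). Ooep, a member of the complex, had 66.6 nt and 524 to 5584 FPKM (median 2034 FPKM). Khdc3, also a member, had 87.4 nt and 77.4 to 1437 FPKM (median 419 FPKM). These 3 genes were above 0 in every oocyte.

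Other long-tailed members were Npm2, a histone chaperone of the oocyte nucleus (86.4 nt, mean 419 FPKM), Dppa3, which protects maternal DNA methylation in the zygote (78.6 nt, mean 969 FPKM), Tle6 (77.8 nt, mean 568 FPKM) and Nlrp14 (76.5 nt, mean 1041 FPKM). Nlrp5, the founding member of the complex, had the shortest tail of the list, 35.5 nt, at percentile 6.53 of all genes. Its footprints ran from 26.4 to 1978 FPKM (median 394 FPKM). It had the highest mean footprint, 493 FPKM, of any gene in the shortest-tailed decile. The members Nlrp2 (47.7 nt) and Nlrp4f (47.9 nt) were also below the median of all genes, and Zbed3 had 55.2 nt. Members of the list with a general role in chromatin or transcription had weaker footprints at both lengths: Trim28 had 78.9 nt and a mean of 11.1 FPKM, Smarca4 had 66.8 nt and 8.68 FPKM, Ctcf had 48.3 nt and 5.36 FPKM and Hsf1 had 49.7 nt and 2.80 FPKM.

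Genes of the egg coat and of secreted oocyte factors all had a tail (11 of 11, median 60.2 nt), with 5 in the longest-tailed quartile group and 3 in the shortest. The zona pellucida genes were all above the median of all genes: Zp3 had 82.6 nt, Zp1 had 80.4 nt and Zp2 had 60.2 nt. Zp3 had footprints of 178 to 3126 FPKM (median 923 FPKM). The growth factors Gdf9 and Bmp15, which act on the surrounding granulosa cells, had nearly equal tails of 64.5 and 64.1 nt, with mean footprints of 1243 and 603 FPKM. A further secreted growth factor of the list, Fgf8, had 27.2 nt and footprints of 0 to 16.7 FPKM (median 6.00 FPKM). The oocyte-secreted Oosp genes spread as widely, from 33.9 nt for Oosp3 (mean 7.56 FPKM) and 43.7 nt for Oosp1 (mean 41.2 FPKM) to 76.4 nt for Oosp2 (mean 290.1 FPKM).

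Maternal mRNAs described as dormant in the full-grown oocyte and activated at maturation were the shortest-tailed list. All 26 had a tail, 3 above and 23 below the median of all genes, with 1 in the longest-tailed quartile group and 18 in the shortest. Their median footprint was 9.08 FPKM from means over oocytes, against 4.51 FPKM for all matched genes. From medians over oocytes it was 2.77 FPKM, against 2.48 FPKM for all matched genes. In single oocytes the list's median ran from 0 FPKM (FGO 12, FGO 14 and FGO 16) to 15.9 FPKM in FGO 2 and 17.7 FPKM in FGO 18. Btg4, the adaptor that brings the CCR4-NOT deadenylase to maternal mRNA, had 29.3 nt and footprints of 0 to 79.4 FPKM (median 2.94 FPKM). The replication gene Orc6 had 28.4 nt and 0 to 25.4 FPKM (median 0 FPKM). Wee2, the oocyte kinase that holds back CDK1, had 41.2 nt and 2.54 to 72.7 FPKM (median 14.4 FPKM).

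Several machinery genes of maternal mRNA decay are in the same list: Cnot7 had 35.7 nt, Cnot8 had 36.0 nt, Dcp1a had 38.3 nt and Cnot6l had 40.3 nt. Plat, the plasminogen activator gene in which cytoplasmic polyadenylation was studied early on, had 33.9 nt and a mean of 10.8 FPKM. Dazl, an RNA-binding translational activator, had 41.9 nt and a mean of 7.12 FPKM. Ccnb1, which encodes cyclin B1, had 45.5 nt and Mos, the kinase of the metaphase arrest, had 47.0 nt, with mean footprints of 24.6 and 14.8 FPKM. The exceptions were Tpx2, a spindle assembly factor with 95.6 nt (mean 12.4 FPKM), H1foo, the oocyte linker histone with 60.1 nt and the highest mean footprint of the list (571 FPKM), and the decapping enzyme gene Dcp2 with 56.2 nt (mean 4.63 FPKM).

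**Figure D3:**
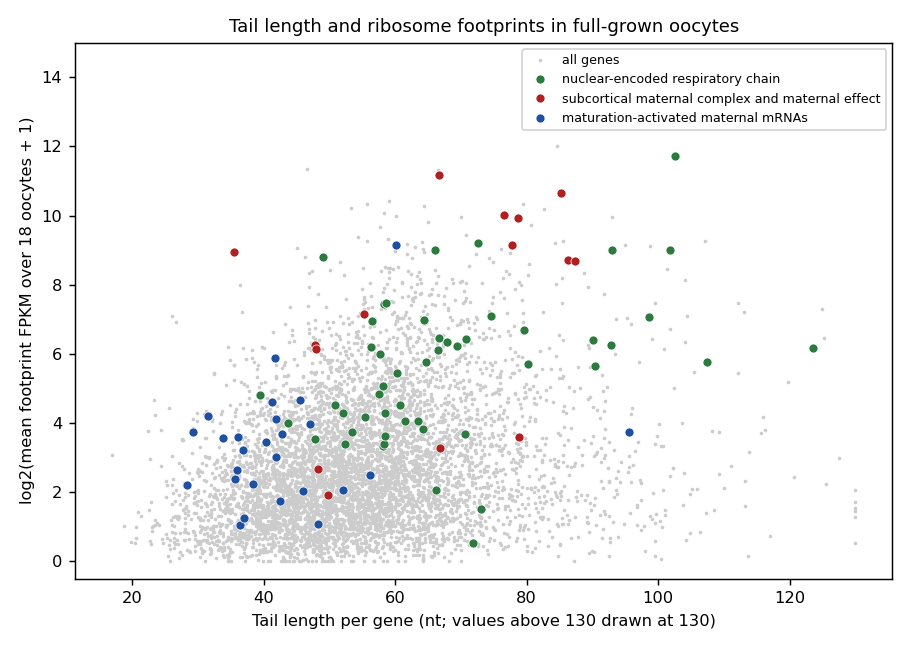
Mean ribosome footprint over 18 single oocytes as log2(FPKM + 1) (vertical axis) against tail length per gene in nucleotides (horizontal axis, values above 130 drawn at 130). Grey points are all matched genes; 3 gene lists are coloured, with the maturation-activated mRNAs (blue) mostly to the left of the median of 54.1 nt and the respiratory chain genes (green) mostly to its right.

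Oocyte gene families that arose by local duplication differed from one another. All 6 Tcl1 genes with a tail (29.8 to 41.7 nt) and all 4 Obox homeobox genes (34.5 to 44.2 nt) were in the shortest-tailed quartile group, and Omt2a and Omt2b had 36.8 and 36.0 nt. The 6 Oas1 genes ran from 36.7 to 88.2 nt, with 3 in the longest-tailed quartile group and 1, Oas1b, in the shortest. Oas1b had a mean footprint of 1.18 FPKM, Oas1c with 78.9 nt had 271 FPKM and Oas1d with 63.3 nt had 303 FPKM, while the highest of the 6 was that of Oas1e (404 FPKM), whose tail of 51.5 nt was below the median of all genes. Oog2 (77.4 nt) and Oog4 (74.3 nt) had means of 92.4 and 107 FPKM. Copies in these families are alike in sequence, so both measurements may share reads between them, and their values are uncertain.

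The Fbxw genes, F-box proteins of which a cluster is active in the oocyte, had the highest median of the 74 symbol families with at least 10 genes, 69.9 nt. Of 15 Fbxw genes, 14 were above the median of all genes, 11 in the longest-tailed quartile group and none in the shortest. Their median footprint was 213 FPKM, and Fbxw24 had 70.8 nt and 107 to 2175 FPKM (median 696 FPKM). The 22 Fbxo genes, F-box genes outside that family, had a median of 54.5 nt and a median footprint of 2.75 FPKM. Skp1a, the adaptor that F-box proteins bind in ubiquitin ligases, had 84.6 nt and the highest mean footprint of any gene with a tail, with 798 to 10390 FPKM (median 3221 FPKM). The Fbxw copies too are alike in sequence and may share reads.

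Respiratory chain genes encoded in the nucleus had long tails as a list: 50 of 90 had a tail, 42 of them above the median of all genes, 27 in the longest-tailed quartile group and 2 in the shortest. Their median footprint was 52.5 FPKM. Atp5e, the epsilon subunit of ATP synthase, had 102.6 nt and 386 to 6870 FPKM (median 2913 FPKM). Uqcrh, the hinge subunit of complex III, had 72.7 nt and 17.1 to 1459 FPKM (median 503 FPKM). Atp5j2, an ATP synthase subunit, had 93.0 nt and 63.1 to 1176 FPKM (median 507 FPKM).

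Subunit classes of complex I, chosen for comparison after their values were seen, did not have the same tails. The 12 genes named Ndufa, Ndufb or Ndufc, most of them accessory subunits, had a median of 77.1 nt and ran from 43.6 to 107.4 nt. Of these, 9 were above and 3 below the median of all genes, with 8 in the longest-tailed quartile group and 1 in the shortest. The 7 named Ndufs or Ndufv, which include the core subunits that carry electrons, had a median of 58.2 nt and lay between 52.0 and 61.6 nt, with none in either outer quartile group. Median footprints were 50.3 FPKM for the accessory set and 15.8 FPKM for the Ndufs and Ndufv set. Genes of the mitochondrial ribosome were near the typical gene (65 of 78 with a tail, median 56.8 nt), although Mrps33 and Mrps21 had 101.3 and 101.7 nt.

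Of 90 genes for cytosolic ribosomal proteins, 45 had a tail, at a median of 62.5 nt, with 20 in the longest-tailed quartile group and 3 in the shortest. Rpl21 was the longest (96.9 nt), followed by Rpl32 (95.9 nt) and Rpl35a (91.5 nt). Rps16 (23.4 nt), Rplp2 (36.3 nt) and Rpl14 (37.3 nt) were the shortest. Rplp2, a stalk protein, combined its short tail with footprints of 34.9 to 1245 FPKM (median 178 FPKM). Rpl39l, the germ-cell copy of Rpl39, had 64.3 nt and 13.7 to 1186 FPKM (median 468 FPKM). Processed pseudogenes of ribosomal protein genes are many, so reads may have been shared there as well.

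Translation factors had the tail of a typical gene (48 of 67, median 53.3 nt, 12 in the longest-tailed quartile group and 4 in the shortest). The longest were Eif1b (89.4 nt) and the oocyte cap-binding protein gene Eif4e1b (76.9 nt), whose footprints ran from 40.9 to 865 FPKM (median 324 FPKM). The somatic cap-binding genes Eif4e and Eif4e2 had 47.8 and 36.0 nt.

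Genes for RNA storage and translational control spread from 25.5 to 76.9 nt, with a median of 55.2 nt (30 of 38 with a tail), 6 in the longest-tailed quartile group and 10 in the shortest. Zar1, which the oocyte needs to keep its mRNA store, had 74.9 nt and 55.1 to 1012 FPKM (median 361 FPKM). Cpeb1 had 69.9 nt and 26.0 to 446 FPKM (median 84.5 FPKM). The germ-cell Y-box gene Ybx2, whose protein coats stored mRNA, had 62.3 nt and 13.4 to 364 FPKM (median 71.1 FPKM). Toward the short end, Cpeb4, itself activated late in meiosis in frog oocytes, had 32.4 nt and a mean of 1.05 FPKM, and Ybx1 had 25.5 nt and a mean of 20.7 FPKM.

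Tails also differed within other pairs of related genes of this list, picked after their values were seen. Patl2 had 58.5 nt and Patl1 had 36.3 nt. G3bp2 had 58.4 nt and G3bp1 had 32.4 nt. Caprin2 had 59.3 nt and Caprin1 had 41.5 nt. Mean footprints were 7.35 FPKM for Patl2 and 1.96 FPKM for Patl1, 240 FPKM for G3bp2 and 6.03 FPKM for G3bp1, and 18.3 FPKM for Caprin2 and 8.52 FPKM for Caprin1. Igf2bp3 (59.1 nt) and Igf2bp2 (39.2 nt) went the other way in footprints, with means of 3.37 and 14.9 FPKM. So did Elavl1 (53.3 nt) and Elavl2 (46.05 nt), with means of 6.03 and 8.43 FPKM. A further Y-box gene, Ybx3, had 75.2 nt, longer than Ybx2, and a mean of 53.1 FPKM. Over the 30 genes of the list the rank correlation of tail and footprint was 0.699, a description over genes that share the same libraries.

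Genes that shorten and degrade mRNA had shorter tails in 17 of 26 cases, measured against the median of all genes: their median was 51.6 nt, 2 were in the longest-tailed quartile group and 9 in the shortest. The 9 short ones were the catalytic deadenylases Cnot7, Cnot8, Cnot6l and Cnot6 (34.5 nt), their partners Btg4 and Tob1 (36.2 nt), the decapping gene Dcp1a, the m6A reader Ythdf3 (38.9 nt) and the nuclease Xrn2 (42.2 nt), while the scaffold gene Cnot1 had 60.7 nt and the nuclease gene Parn had 61.5 nt. Across these 26 genes the rank correlation of tail and footprint was -0.147, and it was 0.0933 across the 26 maturation-activated mRNAs, which share 7 genes with them. Genes of cleavage and polyadenylation had a median of 50.0 nt (14 of 25 with a tail), with 3 in the longest-tailed quartile group and 4 in the shortest.

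Splicing factors had a median of 49.6 nt (82 of 116 with a tail), and 53 of the 82 were below the median of all genes. The longest-tailed quartile group held 15 (18.3%) and the shortest held 26 (31.7%), against 25% of all genes in each. The hnRNP genes were the shortest of these subgroups, which were formed after the values were seen: 13 of 16 were below the median of all genes, 1 in the longest-tailed quartile group and 9 in the shortest, with a median of 45.0 nt. Their median footprint, 19.8 FPKM, was above the 4.51 FPKM of all matched genes. Snrp genes for proteins of the spliceosomal particles had a median of 59.5 nt (10 genes) but were split, 5 above and 5 below the median of all genes. The longest-tailed quartile group held 5 of them and the shortest held 3. Snrpf, the longest of them with 77.3 nt, had footprints of 22.9 to 868 FPKM (median 224 FPKM).

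Genes for enzymes of DNA and histone methylation had a median of 50.4 nt in the 44 of 81 that had a tail, 32 of them below the median of all genes. Few were long: 4 (9.1%) were in the longest-tailed quartile group. The shortest held 13 (29.5%), near the 25% of all genes. Among the histone modifiers, Eed (25.1 nt) and Suz12 (36.9 nt), subunits of the Polycomb complex that places methyl groups on histone H3, had means of 4.07 and 5.92 FPKM. The catalytic subunit genes of that complex were longer, with 50.8 nt for Ezh2 (mean 17.0 FPKM) and 61.9 nt for Ezh1 (mean 2.67 FPKM). The demethylase genes named Kdm had a median of 47.0 nt, 8 of 9 below the median of all genes. Genes for the maternal DNA methylation machinery were longer: Uhrf1 had 67.4 nt, Dnmt3a had 66.9 nt, Dnmt3l had 62.9 nt and Dnmt1 had 59.7 nt. Dnmt1 had footprints of 8.04 to 624 FPKM (median 151 FPKM) and Uhrf1 had 13.2 to 672 FPKM (median 168 FPKM). Dnmt3b, which is dispensable for methylation in mouse oocytes, had 38.2 nt and a mean of 1.29 FPKM, and the zygotic oxidase gene Tet3 had 45.9 nt and a mean of 3.13 FPKM.

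Cell cycle and spindle genes spread over the whole range (45 of 53 with a tail, median 52.1 nt, 14 in the longest-tailed quartile group and 13 in the shortest). The kinase gene Cdk1 had 73.5 nt and 13.5 to 282 FPKM (median 77.7 FPKM), and its binding partner Cks2 had 70.1 nt and 168 to 2292 FPKM (median 892 FPKM). Cyclin B2 (Ccnb2) had 69.8 nt, longer than the 45.5 nt of cyclin B1, with nearly the same mean footprint (25.3 and 24.6 FPKM). Pttg1, the securin that holds back chromosome separation, had 53.3 nt and 266 to 3462 FPKM (median 829 FPKM). The phosphatase gene Cdc25c had 27.9 nt and a median footprint of 0 FPKM. Aurora kinase genes ordered as Aurka (68.0 nt), Aurkc (62.5 nt) and Aurkb (42.4 nt), with means of 27.0, 15.2 and 0.793 FPKM.

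Among genes of the secretory route, those for vesicle coats, tethers and SNARE proteins had a median of 58.3 nt (95 of 158 with a tail, 36 in the longest-tailed quartile group and 14 in the shortest), and the Sec family had the longest median of the 74 families after Fbxw and Cox, 65.0 nt. Actin, tubulin and thymosin genes had 27 of 36 above the median of all genes, and Cfl1, the actin-severing protein cofilin, had 66.5 nt and 36.5 to 647 FPKM (median 315 FPKM). Proteasome genes did not stand out (38 of 47, median 53.4 nt). Families with short medians included Ints, subunits of the Integrator complex (11 genes, 42.0 nt), and Zdhhc, palmitoyl transferases (11 genes, 42.3 nt). The shortest-tailed quartile group held 7 and 6 of their genes, and the longest held 2 and 1. Ints1, at 146.2 nt, was among the longest tails of all genes. Median footprints of these families were 2.05 FPKM for Ints and 0.931 FPKM for Zdhhc.

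Longer tails went with stronger footprints across genes. Over the 6253 matched genes the rank correlation (Spearman) of tail length with the mean footprint was 0.258, and the linear correlation (Pearson) with log2(FPKM + 1) was 0.179. Leaving out the 2 tails above 200 nt gave a linear correlation of 0.250. Genes are not independent replicates and all share 1 tail library and the same 18 footprint libraries, so these values are descriptions. In single oocytes the rank correlation was above 0 in 18 of 18, with a lowest value of 0.121 (FGO 18), a median of 0.252 and a highest value of 0.308 (FGO 9). After FGO 18 the lowest were FGO 3 (0.148) and FGO 1 (0.184).

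For this comparison the matched genes alone were divided into quartile groups by tail length, with 1564 genes in the longest-tailed and 1563 in the shortest-tailed quartile group. Median footprints over genes were 6.89 FPKM in the longest-tailed quartile group and 2.44 FPKM in the shortest-tailed, a ratio of 2.82 (1.50 on the log2 scale). With each gene's median over oocytes in place of its mean, they were 4.37 FPKM in the longest-tailed and 0.870 FPKM in the shortest-tailed quartile group, a ratio of 5.02 (2.33 on the log2 scale). Means differed more, 46.8 FPKM in the longest-tailed quartile group and 7.12 FPKM in the shortest-tailed, a ratio of 6.57. The longest-tailed quartile group held 48.4% of the summed footprint FPKM of matched genes and the shortest-tailed quartile group held 7.36%. Genes averaging at least 100 FPKM numbered 136 in the longest-tailed quartile group and 9 in the shortest-tailed. Genes averaging below 1 FPKM numbered 165 (10.5%) in the longest-tailed quartile group and 361 (23.1%) in the shortest-tailed.

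Each single oocyte showed this difference. The share of genes with a footprint above 0 ran from 63.9% to 94.5% over the 18 oocytes in the longest-tailed quartile group (median 77.5%), against 40.1% to 80.2% in the shortest-tailed quartile group (median 58.6%), and it was higher in the longest-tailed quartile group in 18 of 18. Within single oocytes, the mean over the genes of the group ran from 12.2 to 125 FPKM in the longest-tailed quartile group. In the shortest-tailed it ran from 2.05 to 16.0 FPKM. The ranges over oocytes overlap, and the oocytes also differed in detection, with 5442 to 10194 genes above 0. Within FGO 18, which had the lowest rank correlation, medians were 5.84 FPKM in the longest-tailed quartile group and 3.19 FPKM in the shortest-tailed. Within FGO 9, they were 6.44 and 1.04 FPKM.

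The relation flattened toward long tails. From the shortest to the longest decile of genes, median footprints were 1.98, 2.81, 3.29, 4.14, 5.15, 4.98, 6.84, 6.97, 7.01 and 6.92 FPKM. Above about 57.6 nt, where decile 7 begins, the median thus no longer differed much between deciles, while the upper quartile went on to 28.3 FPKM in the longest decile, against 19.9 FPKM in decile 7. Genes averaging at least 100 FPKM made up 10.4% of the longest decile and 6.55% of decile 7.

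**Figure D4:**
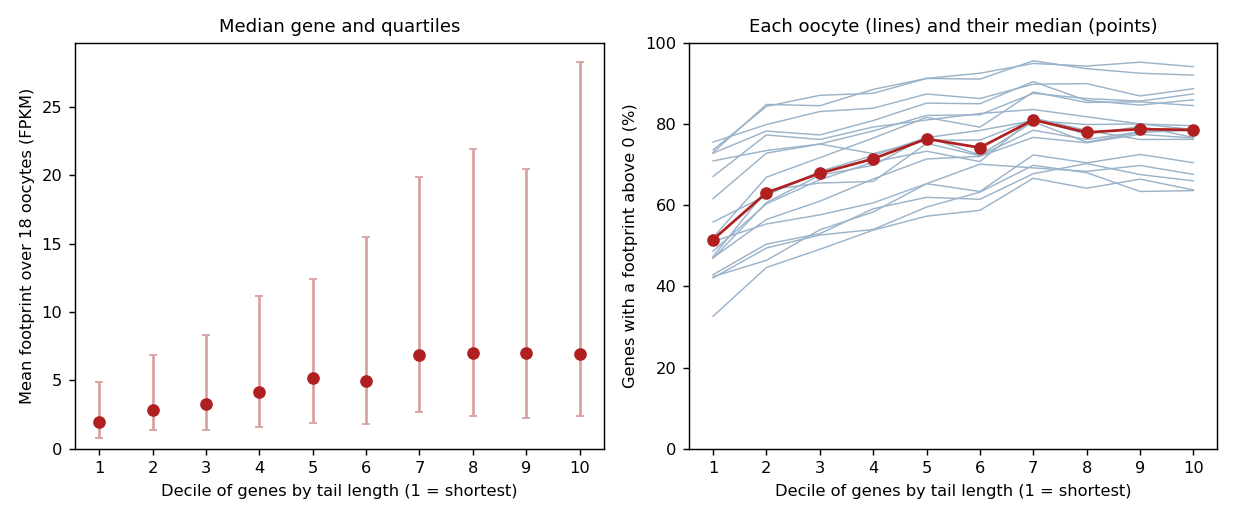
Left, mean footprint over 18 oocytes in FPKM (vertical axis) for the median gene of each decile by tail length (horizontal axis), with bars from the lower to the upper quartile of genes; right, the percentage of genes with a footprint above 0 in each oocyte (lines) and its median over oocytes (points). The medians on the left climb to decile 7 and stay between 6.84 and 7.01 FPKM from there on.

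Read in the other direction, from the lowest to the highest decile of matched genes by footprint, the median tail was 48.4, 50.7, 50.4, 52.7, 52.2, 52.9, 54.7, 56.2, 57.6 and 61.8 nt. In the highest decile, 44.1% of genes were in the longest-tailed quartile group and 6.39% in the shortest. Even there tails ranged widely. Ldhb, the heart-type lactate dehydrogenase, which is abundant in mouse oocytes, had 46.6 nt and 404 to 6805 FPKM (median 2367 FPKM). Uchl1, a deubiquitinase of neurons and oocytes, had 66.5 nt and 439 to 6832 FPKM (median 2304 FPKM). Bpgm, an enzyme of the glycolytic side path, had 55.8 nt and a mean of 1290.1 FPKM. The other genes among the 10 highest footprints that have not been named were E330017A01Rik (59.0 nt) and the ubiquitin gene Ubb (79.4 nt).

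Within gene lists of 20 or more matched genes, the rank correlation was highest in the Obox, Oog, Oas1, Tcl1 and Omt2 families (0.762, 22 genes), RNA storage genes (0.699, 30 genes), F-box genes (0.519, 50 genes), chaperones (0.479, 52 genes) and oocyte markers (0.477, 20 genes). It was near 0 in DEAD and DEAH box helicases (-0.0147, 34 genes), ubiquitin-conjugating enzymes (-0.0277, 22 genes) and vesicle genes (0.100, 95 genes). Gene size moved with both measures: the genomic span of a gene had a rank correlation of -0.0929 with tail length and of -0.222 with mean footprint. Within quartile groups of genes by span, the correlation of tail and footprint lay between 0.222 and 0.275. By chromosome, median tails ran from 52.3 nt (chromosome 16) to 55.8 nt (chromosome 19).

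The share of genes with a tail value rose with their footprints. Of the 20756 genes in the footprint table, in deciles by mean footprint, the share with a tail was 0.867% in the lowest decile and 77.1% in the highest. Genes with a tail held 53.8% of the summed footprint FPKM. The highest decile still held 475 genes (22.9%) without a tail, and 18 of the 50 genes with the highest footprints were among them. Of the 475, 382 were listed at 0 in the tail table and 93 stood there under no matching symbol, and of the 18 these were 16 and 2 (Gm20594 and Atp5mpl).

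**Figure D5:**
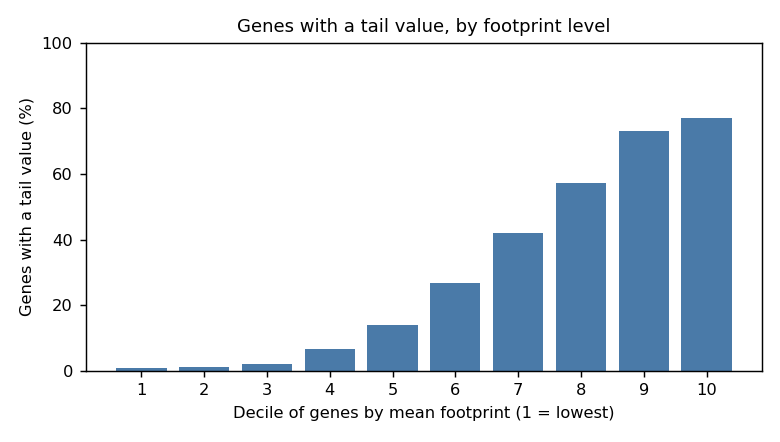
Percentage of genes with a tail value (vertical axis) in each decile of the 20756 genes of the footprint table by mean footprint over 18 oocytes (horizontal axis, from the lowest to the highest decile). The share reaches 77.1% in the highest decile.

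Several of these encode very small proteins. Rpl41, one of the smallest ribosomal proteins, had 442 to 135945 FPKM (median 39193 FPKM) and alone held 18.3% of the summed footprint FPKM. Tmsb10, an actin-binding thymosin, had 340 to 21888 FPKM (median 6635 FPKM), and Rpl39 had 154 to 9485 FPKM (median 3536 FPKM). The respiratory genes Uqcr11, Atp5k and Cox7c, with means of 1507, 1473 and 1033 FPKM, and the RNA polymerase subunit gene Polr2l, with a mean of 1300.1 FPKM, had no tail either. In the highest decile the median genomic span was 16.7 kb for the 1601 genes with a tail and 6.11 kb for the 474 without one whose span is annotated. RNA was kept above 200 nt and the amplified DNA was selected for size. What part these steps, or the number of reads, have in which genes have a tail was not tested. Hist1h4c, a replication-dependent histone gene of a class whose mRNAs end without a poly(A) tail, had no tail value and a mean of 1073 FPKM. Another Hist1 gene, Hist1h2bc, did have a tail value, 61.8 nt, with a mean of 85.9 FPKM. Of 85 histone genes and variants, 12 had a tail value, against 30.8% of all genes listed in the tail table.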

How the data were processed

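Tail lengths per gene, in nucleotides, were deposited as a table by the authors. Per the labels' protocols, total RNA was end-extended, cleaned to keep RNA above 200 nt, reverse transcribed, amplified, size-selected and sequenced on a PacBio Sequel II. No source used here gives the tail caller, the least number of reads per gene, or whether a value is a mean, so depth is unknown. Footprint values were deposited as FPKM by the authors. The tools, for which no role or order is stated, were, per the submitters' processing notes, STAR 2.5.3a, Cufflinks 2.2.1, cutadapt 1.14, Bowtie2 2.2.2 and Trim Galore 0.4.2.

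A gene counted as having a tail where its value was above 0. Tail genes were matched to footprint genes by symbol (6229) or by a unique RefSeq synonym (24), and 100 found no match. Footprints were averaged over the 18 oocytes. Quartile groups and deciles were formed by rank, and a pseudocount of 1 FPKM was used on the log2 scale. Tail values that are whole numbers made up 1.07%, near the 1% that even decimals give. Python 3.11.15, numpy 2.4.6, pandas 2.3.3, scipy 1.17.1 and matplotlib 3.10.9 were used, and the calculations were tested on simulated data.

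Named genes were drawn from the 12 longest and 12 shortest tails among genes averaging at least 1 FPKM, the 5 longest and 5 shortest of all, the 10 highest footprints, the 6 highest in the longest and shortest deciles, and in each list the longest, the shortest and up to 4 of the highest footprints; others were chosen after their values were seen. The genes and lists were chosen with earlier results of these data known. Sequence features of 3′ ends were not analysed here.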

Additional observations from a re-analysis of the deposited data

How the results depend on the processing

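The 24 alternatives for the rank correlation of tail length and mean footprint all stayed within 1 SD of the single-oocyte values of the main value, 0.258. Of these, 18 left out 1 oocyte each, which can move a mean over 18 oocytes only little. None varied the tail library, so they do not show how stable the tail side is. Leaving out each oocyte in turn gave 0.250 to 0.268, the median over oocytes gave 0.286, a minimum mean of 1 FPKM gave 0.231, and leaving out 7 of the gene lists (added after seeing the data) gave 0.249. The log2 ratio of median footprints, longest-tailed over shortest-tailed quartile group, was 1.41 to 1.53 without each oocyte, 1.80 between deciles and 1.13 with a minimum of 1 FPKM. With the median over oocytes it was 2.33, more than 1 SD of the single-oocyte values (0.670) from the main value of 1.50. It lay within their range, 0.873 to 2.85 in the 14 oocytes where the ratio is defined. In the remaining oocytes the median of the shortest-tailed quartile group was 0 FPKM. The linear correlation was 0.177 with a pseudocount of 0.1 FPKM and 0.250 without the 2 tails above 200 nt, a choice added after seeing the data. Among genes averaging at least 1 FPKM the median tail was 54.9 nt, outside the 95% order-statistic interval of the median. Differences between a list's median and that of all genes stayed within the list's interval in 88 of 91 alternatives. This count says little about stability. In each of the 46 lists, 1 alternative only left out whole-number tails, 1.07% of values, which can hardly move a median. For the smallest lists the interval was the full range of the members, which a median can hardly leave. None of the 91 varied the tail library. Zfp genes, with 2.89 nt less than all genes, had 1.72 nt more with a minimum of 1 FPKM. The single blood marker with a tail had 23.8 nt more than all genes with a minimum of 1 FPKM and 24.6 nt more without whole-number tails. With 1 gene its interval has no width, so any change at all counts as leaving it. Besides the Zfp genes, the lists that changed sides of the median of all genes with a minimum of 1 FPKM were Tmem genes, nuclear transport, oocyte transcription factors and ubiquitin-conjugating enzymes. The cause of these changes of side was not tested. No paired analysis was possible because the tails come from 1 library and no result comes from a test. The planned comparison of 3′ end sequence features, with its alternatives, was not run. The unknown read number per gene limits how firmly any single tail can be read.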
